A study of Mus musculus with 6 samples.

Results

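Chemokines are small secreted proteins that steer the movement of white blood cells, and their receptors are membrane proteins on the cells that respond. The genes described here were chosen by symbol: every gene whose name starts with Ccl, Cxcl, Cx3cl or Xcl and a number (ligands), or with Ccr, Cxcr, Cx3cr, Xcr or Ackr and a number (receptors and atypical receptors). The rule found 67 gene identifiers of 22623 in the gene list, of which 44 were ligands, 19 were receptors and 4 were atypical receptors. They carried 61 symbols, because Ccl19, Ccl21a, Ccl21b, Ccl21c and Ccl27a each stood for several near-identical copies whose counts are uncertain.

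The samples were 6 single-nucleus RNA libraries from tumors grown under the skin of the flank, 3 in control mice (CO) and 3 in mice labelled knockout (KO). Per the study's methods, all mice carried a loxP-flanked MCT2 (Slc16a7) gene and a tamoxifen-inducible Cre on a C57BL/6 background, and the deletion was meant to be body-wide. At 8 weeks of age the KO mice received tamoxifen on 5 days and the CO mice received the vehicle. TC1 cells, a mouse lung epithelial tumor line that does not carry the conditional allele, were injected 2 days later, and tumors were taken after 24 days. The induced deletion and the tamoxifen itself therefore cannot be told apart, and any deletion concerned host cells alone. The study counts the 3 libraries of a group as biological replicates, while the labels number them without naming animals, and p-values measure the spread between these libraries.

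In an inflamed tissue, CC ligands such as Ccl2 draw monocytes out of the blood through Ccr2, and the cells then lose Ccr2 and gain Cx3cr1 and other macrophage genes as they mature. Interferon-induced CXC ligands such as Cxcl9 and Cxcl10 act on Cxcr3 of T and NK cells, while Cxcl12 holds cells that carry Cxcr4. Atypical receptors bind ligands without the usual G-protein signal and remove or carry them.

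Cxcl9 and Cxcl10 are neighbors whose levels in tumor-like nuclei are given below, and the 250 bases before each start are shown as a reference. In GRCm38, the Cxcl10 stretch is chr5:92348890-92349139 and the Cxcl9 stretch is chr5:92328080-92328329, both read from the minus strand, and both come from RefSeq (GRCm38.p6). Capitals mark matches to an interferon-stimulated response element (ISRE, searched as GAAA, any 2 bases, GAAA) or to a kappa-B motif (searched as GGG, any 5 bases, CC), each searched on both strands.
Cxcl10: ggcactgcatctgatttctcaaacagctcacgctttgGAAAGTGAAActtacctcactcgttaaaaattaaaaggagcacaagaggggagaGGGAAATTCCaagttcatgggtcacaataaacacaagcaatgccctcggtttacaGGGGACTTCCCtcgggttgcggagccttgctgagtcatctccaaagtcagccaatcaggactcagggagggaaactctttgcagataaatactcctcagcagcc
Cxcl9: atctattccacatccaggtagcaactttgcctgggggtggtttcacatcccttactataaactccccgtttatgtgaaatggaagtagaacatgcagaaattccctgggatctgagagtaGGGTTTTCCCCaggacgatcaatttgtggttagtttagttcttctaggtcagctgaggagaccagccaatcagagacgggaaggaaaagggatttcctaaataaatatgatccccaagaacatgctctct
The Cxcl10 stretch held 1 ISRE match, starting 213 bases before the gene, and 3 kappa-B matches, of which 2 overlapped. The Cxcl9 stretch held 0 ISRE matches and 2 overlapping kappa-B matches. ISRE matches were present in 978 of 32851 promoters of the same length (2.98%), and kappa-B matches in 15046 (45.8%), so the latter letters are common. Of 46 members with a promoter entry, 3 held an ISRE match (Ccl19, Cxcl10 and Cxcl14) and 27 held a kappa-B match. A match describes letters in this window and is not a measured binding site.

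After filtering, 17514 of 18865 barcodes were kept, with 1763 to 4587 nuclei and 7809921 to 16892836 unique molecular identifiers (UMIs, each a counted RNA molecule) per library. Clusters made without the 67 genes were named from marker lists: 9095 nuclei were tumor-like, 4734 macrophage-like, 1312 monocyte-like, 794 T/NK-like, 185 endothelial-like, 153 dendritic-like, 111 fibroblast-like, 66 adipocyte-like, 60 skeletal muscle-like and 55 plasmacytoid dendritic-like. Tumor-like is a name from markers, since no nucleus was traced to the injected line, and 3 of 6 epithelial markers were detected in those nuclei at a summed 0.63 CPM (UMIs per 1000000 UMIs of the class). The labels give lung as the tissue. Among 8 lung or epithelial genes, Sftpc, Sftpa1, Scgb1a1 and Nkx2-1 had 0 UMIs over all kept nuclei. Sftpb had 9 UMIs, Epcam 16, Ager 145 and Cdh1 296. Slc16a7 stood at 8.58, 11.6 and 21.0 CPM in the CO libraries and at 15.6, 6.92 and 31.5 CPM in the libraries labelled KO, so it was not lower in the latter. Whether its 3′ counts lie in the deleted stretch is not given in the sources used here, and KO below means the label. The libraries shared 16 barcodes in all 6 and 61 in at least 2, which touched 165 kept nuclei.

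Of the 67 genes, 29 had at least 100 UMIs over the kept nuclei, 13 had 10 to 99, 12 had 1 to 9 and 13 had none. Together they held 111986 UMIs, of which 97204 were from ligands, 14107 from receptors and 675 from atypical receptors. A few genes made up most of the ligand UMIs. Ccl5, a ligand for Ccr1 and Ccr3 that draws T cells and monocytes, gave 31.6% of the ligand UMIs. Cxcl10 gave 24.9%, Ccl2 gave 22.8% and Ccl25, a ligand of Ccr9, gave 10.8%, so that these 4 genes held 90.2%. Of the receptor UMIs, Cx3cr1, the receptor of Cx3cl1, gave 20.2%, Ccr2 gave 13.7% and Ccr9 gave 7.74%. Counts come from the 3′ ends of transcripts and are not scaled per length, so these shares describe UMIs and do not rank genes by expression.

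Levels are given as CPM, and values per library follow the order CO replicates 1, 2 and 3, then KO replicates 1, 2 and 3. For each of the 29 genes, the class with the highest pooled level among classes with at least 5 of its UMIs was taken as its leading class. Monocyte-like nuclei led for 12 genes and macrophage-like nuclei for 6. Fibroblast-like nuclei led for 4, T/NK-like and skeletal muscle-like nuclei for 2 each, and endothelial-like, plasmacytoid dendritic-like and tumor-like nuclei for 1 each. The tumor-like class, the largest, nevertheless held most UMIs of several genes whose CPM was higher elsewhere.

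**Figure D1:**
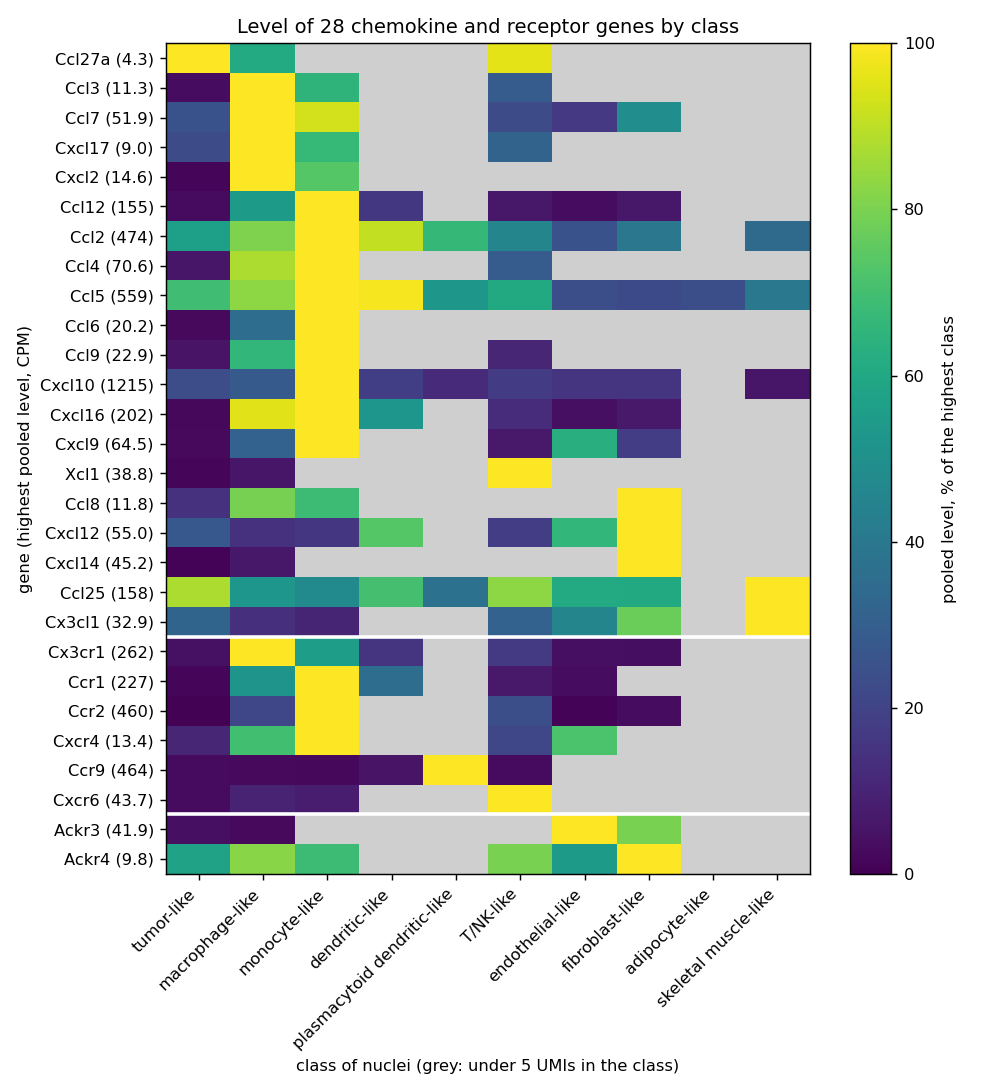
Pooled level of 28 of the 29 genes with at least 100 UMIs (vertical axis, ligands, then receptors, then atypical receptors, with the highest level in CPM in brackets) in 10 classes of nuclei (horizontal axis), as a percentage of the gene's highest class. Grey marks classes with under 5 UMIs of the gene. Monocyte-like and macrophage-like nuclei lead for 17 of the 28 genes, and Ccl2, Ccl5, Cxcl10 and Ccl25 are seen in nearly every class.

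Ccl5, Ccl2, Cxcl10 and Ccl25 were found in every class, and tumor-like nuclei held 77.8%, 74.9%, 73.3% and 81.4% of their UMIs. Ccl5 in tumor-like nuclei stood at 840, 530, 97.3, 414, 79.8 and 159 CPM. Its highest library was CO replicate 1, and CO replicate 3 lay among the KO libraries. Across macrophage-like nuclei Ccl5 was at 804, 639, 163, 548, 124 and 289 CPM, higher than in tumor-like nuclei in 5 of 6 libraries but with a pooled ratio of 1.20. T/NK-like nuclei had 714, 434, 62.3, 443, 97.9 and 216 CPM, again with CO replicate 1 highest and CO replicate 3 and KO replicate 2 lowest. Ccl5 thus differed more between libraries within a class than between the pooled levels of these classes. Those levels were 386 CPM in tumor-like, 464 in macrophage-like and 338 in T/NK-like nuclei. Monocyte-like nuclei pooled to 558.5 CPM and were above tumor-like nuclei in 6 of 6 libraries, with a pooled ratio of 1.445. They were also above macrophage-like nuclei in 6 of 6, with a pooled ratio of 1.20. Dendritic-like nuclei pooled to 551 CPM, from 109 UMIs.

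Ccl2, the main ligand of Ccr2, stood at 366, 293, 242, 489, 60.1 and 88.7 CPM in tumor-like nuclei. KO replicate 1 was the highest library and KO replicates 2 and 3 were the lowest. Macrophage-like nuclei had 389, 394, 384, 702, 117 and 162 CPM of Ccl2, more than tumor-like nuclei in 6 of 6 libraries, with a pooled ratio of 1.43. Monocyte-like nuclei had 407, 541, 462, 739, 90.6 and 213 CPM and were above macrophage-like nuclei in 5 of 6. KO replicate 1 was again highest and KO replicate 2 lowest. Ccl2 overlaps Gm17268 on the opposite strand (11277 UMIs over all barcodes). Strand use in counting is not given in the sources used here, and the part of such partners in the counts was not tested. The same holds for Cx3cr1 with Wdr48 (4428 UMIs), Cxcr6 with Fyco1 (7035 UMIs), Cxcl16 with Zmynd15 (1912 UMIs), Ccl27a with Il11ra1 (2878 UMIs), Ackr4 with Acad11 (1109 UMIs) and Cxcl10 with Art3 (448 UMIs). Cx3cr1 also overlaps Gorasp1, Csrnp1 and Xirp1 on the same strand. Each of these had 0 UMIs over all barcodes, and whether their reads entered the Cx3cr1 counts was not tested.

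Ccl25 was the steadiest of these ligands between libraries, with 137, 137, 145, 151, 135 and 124 CPM in tumor-like nuclei, a mean of 138 ± 9.23 (SD, n = 6). Macrophage-like nuclei were below tumor-like nuclei in all 6 libraries, with a pooled ratio of 0.599. Skeletal muscle-like nuclei led nominally with 158 CPM, from 24 UMIs, and their 95% Poisson interval of 101 to 235 included the tumor-like level. On the opposite strand Ccl25 overlaps Elavl1, a widely expressed RNA-binding protein gene with 22941 UMIs, and the part of that gene in the Ccl25 level was not tested.

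Free RNA gives counts of abundant genes in nuclei that do not make them, so marker lists were read beside these levels. The 10 tumor markers together reached 43.7% to 75.5% of their tumor-like level in T/NK-like nuclei and 51.3% to 78.2% in endothelial-like nuclei, 7.07% to 87.0% in fibroblast-like, 4.23% to 49.5% in dendritic-like and 5.78% to 101% in plasmacytoid dendritic-like nuclei. In macrophage-like nuclei they reached 5.57% to 16.1% and in monocyte-like nuclei 6.20% to 21.2%. The 10 macrophage markers stood in monocyte-like nuclei at 69.0% to 105% of their macrophage-like level, so these 2 classes shared much of the macrophage list, and the part of this in differences between them was not tested. In the other direction, the 10 macrophage markers reached 1.20% to 5.62% of their macrophage-like level in tumor-like nuclei, with all 10 detected. The part of free RNA in the spread of Ccl2, Ccl5, Cxcl10 and Ccl25 over classes was not tested.

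Cxcl10 differed between groups of tumor-like nuclei. Those nuclei fell into 7 clusters, named here by leading gene, and 2 of them stood out. The Ifit3b cluster (576 nuclei) was led by interferon-induced genes such as Ifit3b, Rsad2 and Ifit1. The Atf3 cluster (273 nuclei) was led by stress and immediate-early genes such as Atf3, Ier2 and Egr1. Cxcl10 in the Ifit3b cluster stood at 2016, 1511, 1448, 1453, 451 and 676 CPM. In the Atf3 cluster it stood at 2966, 5006, 1184, 730 and 1566 CPM in the 5 libraries before KO replicate 3, which had 516. These clusters had the highest 2 levels among the 7 in 6 of 6 libraries, and the other 5 pooled to 129 to 295 CPM. The Ifit3b and Atf3 clusters held 25.5% and 10.0% of all Cxcl10 UMIs. Over the tumor-like class as a whole Cxcl10 was at 462, 426, 161, 325, 95.6 and 180 CPM.

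Cxcl9, which lies within 28 kb of Cxcl10 on chromosome 5 and shares its receptor, had few counts there. It was at 1.42 CPM in the Ifit3b cluster (7 UMIs, 95% Poisson interval 0.572 to 2.93) and at 3.74 CPM in the Atf3 cluster (4 UMIs, 1.02 to 9.59), against 0.823 to 3.32 CPM in the other 5. These intervals cover counting error alone. The Atf3 value was the highest of the clusters but rested on 4 UMIs, so these counts do not show whether Cxcl9 followed Cxcl10. The Cxcl10 promoter stretch printed earlier holds the ISRE letters and the Cxcl9 stretch does not. This describes the letters, and a link to these levels was not tested.

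Other ligands favored other tumor-like clusters. Ccl5 pooled to 1127 CPM in the Crabp1 cluster (402 nuclei, with the mesothelial gene Msln among its leading genes) and to 955 CPM in the Ifit3b cluster. These clusters ranked among the highest 2 in 4 and 5 of 6 libraries, while the remaining clusters ranged from 213 to 652 CPM. Cxcl12, the ligand of Cxcr4 and Ackr3, was highest in the Pde10a cluster (2069 nuclei) in 5 of 6 libraries, at 27.4, 37.0, 83.6, 37.5, 23.3 and 10.8 CPM. The other clusters pooled to 8.13 to 16.3 CPM. Ccl7, a Ccr2 ligand encoded beside Ccl2, was likewise highest in the Pde10a cluster in 5 of 6 libraries, at 40.4, 50.9, 59.5, 43.4, 13.7 and 7.92 CPM, where KO replicate 3 was the exception. The remaining clusters ranged from 4.87 to 14.2 CPM for Ccl7.

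Ccl2 was spread more evenly over the tumor-like clusters. Its pooled level was 465 CPM in the Ifit3b cluster, 409 in the Crabp1 cluster and 401 in the Pde10a cluster, and 163 to 328 CPM in the others. Ccl4, a close relative of Ccl3, pooled to 80.5 CPM in the Atf3 cluster, where it came from 3 libraries. It was at 71.2 CPM in CO replicate 1, 350 in CO replicate 2 and 19.5 in KO replicate 3, and at 0 in the other 3 libraries. No test was made between clusters, because nuclei had been clustered on expression, although without the 67 genes.

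**Figure D2:**
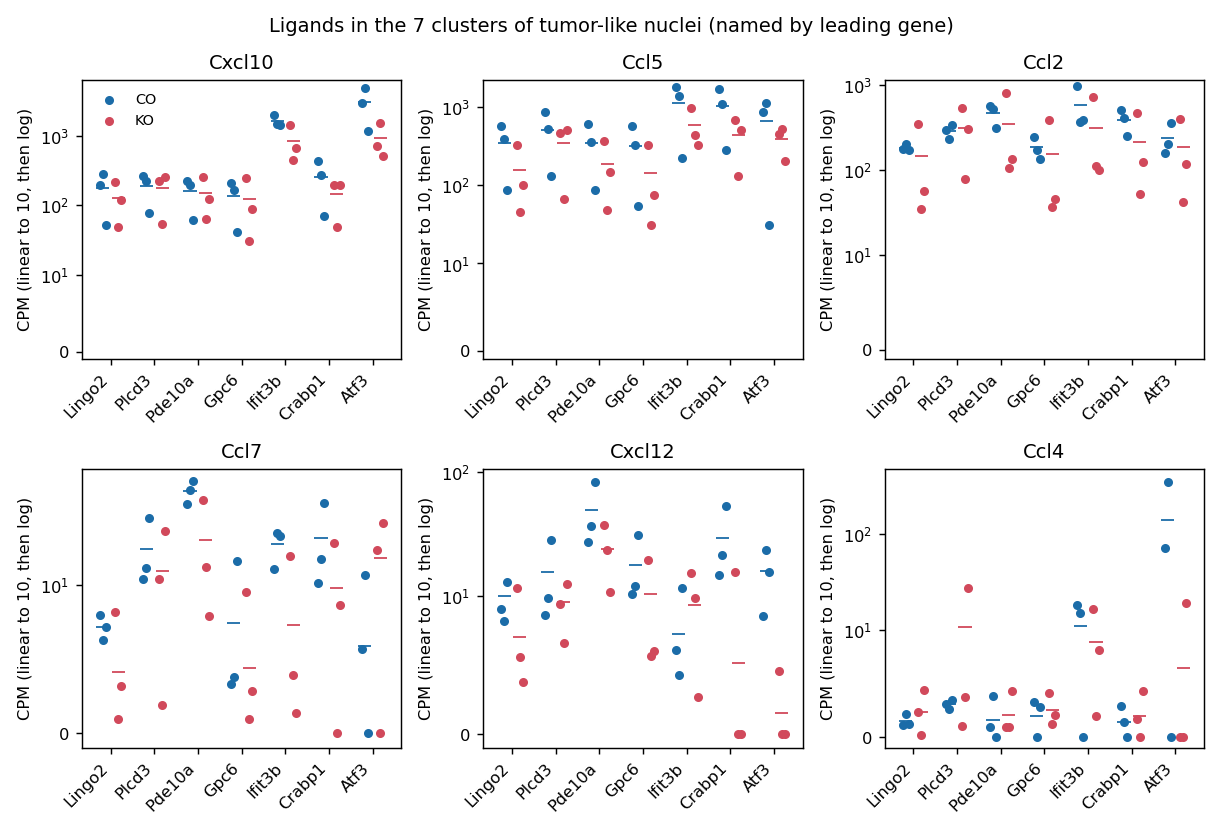
Levels of 6 ligands (vertical axis, CPM, linear up to 10 and logarithmic above) in the 7 clusters of tumor-like nuclei (horizontal axis, named by leading gene). Points are libraries, blue for CO and red for KO, and lines are group means. Cxcl10 is highest in the Ifit3b and Atf3 clusters in all 6 libraries, and Cxcl12 and Ccl7 peak in the Pde10a cluster.

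Among myeloid nuclei, monocyte-like nuclei held the highest Cxcl10 level. They had 1341, 1829, 1014, 1559, 298 and 556 CPM against 367, 361, 214, 616, 112 and 196 CPM in macrophage-like nuclei. Monocyte-like nuclei were higher in 6 of 6 libraries, 3.54-fold in the pool, and KO replicate 2 was the lowest library in both classes. Cxcl9 followed the same direction in 5 of 6 libraries, with 155, 24.4, 18, 40.2, 12.9 and 105 CPM in monocyte-like nuclei from 96 UMIs. Its macrophage-like values were 18.2, 19.9, 7.69, 7.24, 17.0 and 38.6 CPM, and endothelial-like nuclei had 47.9, 99.7, 7.12, 0, 21.0 and 54.6 CPM from 38 UMIs, between the myeloid classes in the pool. The leading genes of the monocyte-like cluster included Slfn4, Slfn5, Ifi206 and Ifi213, which are interferon-inducible genes.

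Cxcl16, a membrane-bound ligand for Cxcr6, was shared evenly by both myeloid classes. Monocyte-like nuclei had 223, 272, 156, 228, 155 and 137 CPM and macrophage-like nuclei 199, 206, 151, 194, 282 and 173 CPM. Neither class was higher throughout, and both were far above tumor-like nuclei, with macrophage-like nuclei 41.9-fold higher in the pool and higher in 6 of 6 libraries.

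The CC ligands of chromosome 11 were mostly myeloid. Ccl12, a mouse Ccr2 ligand, stood at 126, 191, 222, 257, 0 and 17.5 CPM in monocyte-like nuclei and at 78.5, 84.8, 92.2, 177, 26.7 and 21.2 CPM in macrophage-like nuclei. KO replicate 1 was highest and KO replicates 2 and 3 lowest in both, and the 0 of 77289 monocyte-like UMIs in KO replicate 2 allows up to 38.8 CPM. Macrophage-like nuclei exceeded tumor-like nuclei 19.0-fold. Ccl4 had 94.4, 71.8, 23.1, 46.3, 48.6 and 69.1 CPM in macrophage-like and 33.9, 81.3, 42.0, 98.3, 51.8 and 67.0 CPM in monocyte-like nuclei, with no steady order between the classes. Ccl3 was at 14.8, 13.8, 4.61, 10.9, 4.86 and 12.5 CPM in macrophage-like nuclei, 31.9-fold above tumor-like nuclei.

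Ccl7 was at 53.5, 51.0, 67.6, 85.5, 31.6 and 21.8 CPM in macrophage-like nuclei and 13.5, 17.8, 30, 15.7, 3.98 and 5.51 CPM in tumor-like nuclei. It was therefore higher in macrophage-like nuclei in every library, 3.98-fold in the pool, although tumor-like nuclei held 60.3% of its UMIs. Ccl6 and Ccl9, ligands of Ccr1, rested on few UMIs. Ccl6 had 9.68, 16.3, 30, 40.2, 12.9 and 0 CPM in monocyte-like nuclei, from 30 UMIs. Ccl9 had 5.69, 3.46, 6.15, 47.8, 7.29 and 6.23 CPM in macrophage-like nuclei, where 66 of its 92 UMIs came from KO replicate 1. Cxcl2, a neutrophil attractant, showed the same pattern with 7.96, 6.92, 9.22, 47.8, 2.43 and 0.623 CPM and 66 of 89 macrophage-like UMIs in KO replicate 1. Of 6 neutrophil markers, summing to 177 CPM in monocyte-like and 197 CPM in macrophage-like nuclei, Ly6g was at 0 in both classes.

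Cxcl17, a mucosal chemokine, was at 17.1, 10.4, 16.9, 6.52, 2.43 and 4.36 CPM in macrophage-like nuclei, from 55 UMIs. Every KO library was below every CO library, in a class where 11.9% of all genes tested had groups without overlap. Ccl8 reached 11.8 CPM in fibroblast-like nuclei from 6 UMIs, but 57 UMIs in macrophage-like nuclei gave 2.28, 6.06, 38.4, 7.24, 2.43 and 7.47 CPM, with CO replicate 3 well above the rest. For Ccl8 the leading class therefore rested on few counts.

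Cxcl12 and Cxcl14 had their highest pooled levels in fibroblast-like nuclei. Cxcl12 pooled to 55.0 CPM there (28 UMIs, 95% Poisson interval 36.5 to 79.5), with dendritic-like nuclei next at 40.4 CPM from 8 UMIs (17.5 to 79.7), and these intervals overlapped. In endothelial-like nuclei it was at 47.9, 18.1, 99.6, 17.5, 34.9 and 24.8 CPM, and in tumor-like nuclei at 12.6, 15.5, 42.7, 17.3, 9.71 and 6.19 CPM. CO replicate 3 was highest in both of these classes. Cxcl14, expressed by fibroblasts in many tissues, pooled to 45.2 CPM in fibroblast-like nuclei from 23 UMIs, against 2.96 CPM in macrophage-like nuclei. Its fibroblast-like UMIs numbered 7, 1, 6, 1, 3 and 5 in the libraries, and the 7 of CO replicate 1 came from 2 nuclei in a total of 3444 UMIs. Cxcl5, a neutrophil attractant, had 28 of its 37 UMIs in fibroblast-like nuclei, and Ccl11 (eotaxin) 7 of 46.

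Cx3cl1, a membrane-anchored ligand, had its largest share in tumor-like nuclei (80.6% of UMIs), at 13.4, 12.8, 26.5, 7.44, 5.14 and 7.71 CPM. Each KO library was below each CO library there, where 12.8% of all genes tested had groups without overlap. Its pooled level was nominally higher in skeletal muscle-like nuclei, 32.9 CPM, from 5 UMIs. Ccl27a, a skin chemokine with several gene copies, was at 5.99, 4.09, 4.58, 4.73, 2.97 and 3.30 CPM in tumor-like nuclei. Xcl1, made by activated T and NK cells, had 63.1% of its UMIs in T/NK-like nuclei, at 143, 43.8, 0, 21.7, 6.99 and 7.21 CPM. Of its 94 T/NK-like UMIs, 61 were in CO replicate 1. Ccl21a, the lymphatic vessel ligand of Ccr7, had 21 of 35 UMIs in endothelial-like nuclei, from 3 libraries.

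Receptors were more restricted than the abundant ligands. Ccr2 and Cx3cr1 split the myeloid classes in opposite directions. Ccr2 was at 489, 480, 480, 739, 272 and 96.1 CPM in monocyte-like nuclei and at 119, 66.6, 96.8, 193, 48.6 and 38.0 CPM in macrophage-like nuclei. Monocyte-like nuclei were higher in 6 of 6 libraries, 4.72-fold in the pool. Cx3cr1 was at 329, 344, 346, 269, 163 and 151 CPM in macrophage-like nuclei and at 232, 211, 186, 123, 90.6 and 72.8 CPM in monocyte-like nuclei. Here macrophage-like nuclei were higher in 6 of 6 libraries, with a pooled monocyte-to-macrophage ratio of 0.56. Ccr1, which binds Ccl3, Ccl5, Ccl6 and Ccl9, followed Ccr2, with 281, 195, 168, 384, 116 and 67.0 CPM in monocyte-like nuclei against 123, 106, 109, 217, 99.6 and 46.7 CPM in macrophage-like nuclei, higher in 6 of 6.

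Cxcr4, the Cxcl12 receptor, was seen with 199 UMIs in all. It had 14.5, 12.2, 18, 11.2, 12.9 and 14.6 CPM in monocyte-like nuclei, from 20 UMIs, and 2.28, 6.06, 7.69, 10.9, 12.1 and 14.3 CPM in macrophage-like nuclei. In the macrophage-like class all KO libraries lay above all CO libraries, where 11.9% of all genes tested had groups without overlap.

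**Figure D3:**
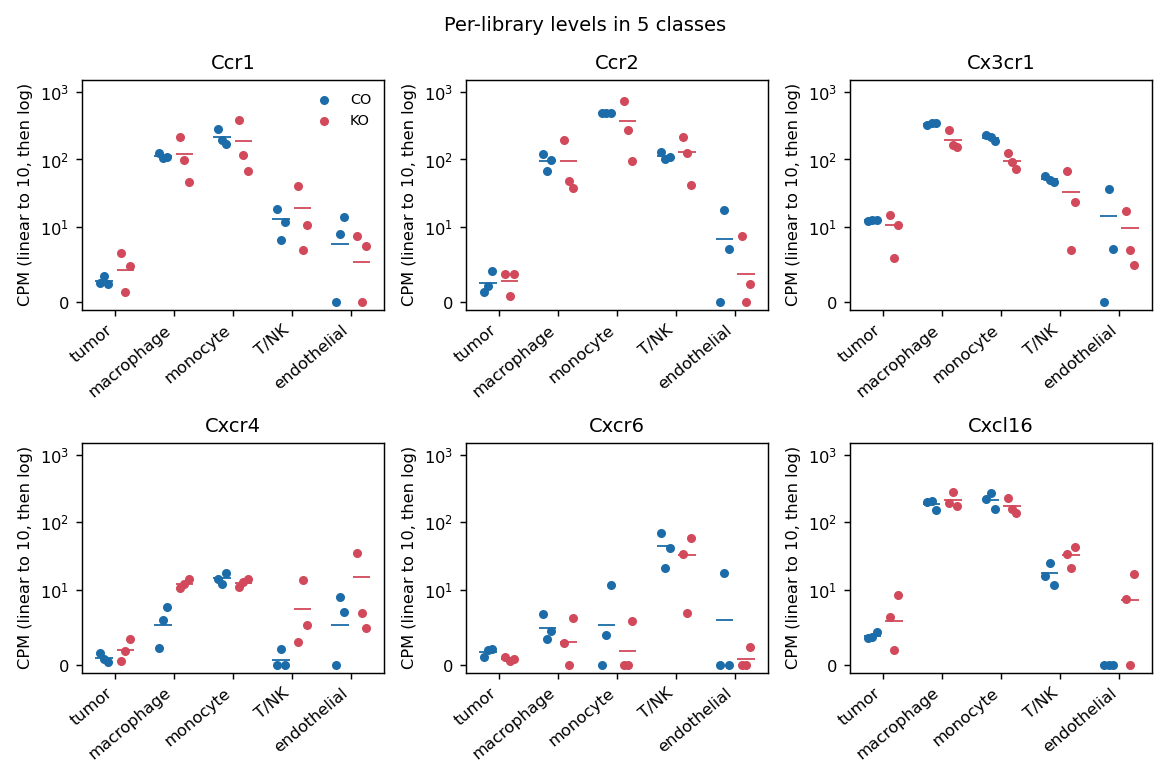
Levels of 5 receptors and of the ligand Cxcl16 (vertical axis, CPM, linear up to 10 and logarithmic above) in 5 classes of nuclei (horizontal axis). Points are libraries, blue for CO and red for KO, and lines are group means. Ccr2 and Ccr1 are highest in monocyte-like nuclei, Cx3cr1 in macrophage-like nuclei, and Cxcr6 in T/NK-like nuclei.

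Lymphoid receptors were found in T/NK-like nuclei. Cxcr6, the Cxcl16 receptor of tissue-resident T and NK cells, stood at 70.2, 20.9, 42.2, 34.0, 6.99 and 59.5 CPM in T/NK-like nuclei and led there in 6 of 6 libraries. Its pooled level was 43.7 CPM, against 4.44 CPM in macrophage-like nuclei. Cxcr3, the receptor of Cxcl9 and Cxcl10, had 19 of its 39 UMIs in T/NK-like nuclei, at 14.0, 10.4, 10.0, 6.19, 0 and 1.80 CPM. The KO libraries were all below the CO libraries, on counts of 6, 5, 5, 2, 0 and 1, which are too few to rank.

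Ccr2 and Cx3cr1 were counted in T/NK-like nuclei as well. Ccr2 stood at 131, 102, 108, 214, 126 and 41.5 CPM there, a pooled 111 CPM beside 97.5 CPM in macrophage-like nuclei. Cx3cr1 was at 56.2, 50, 46.2, 68.1, 6.99 and 23.4 CPM. For comparison, the 10 macrophage markers together reached 9.37% to 19.3% of their macrophage-like level in T/NK-like nuclei, with all 10 detected. The 10 monocyte markers reached 15.4% to 45.6% of their monocyte-like level there. The part of such RNA in the Ccr2 and Cx3cr1 levels was not tested.

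Dendritic-like nuclei led for Ccr7 and Xcr1, which mark migrating and cross-presenting dendritic cells, both on few counts. Ccr7 had 16 UMIs there, a pooled 80.9 CPM (95% Poisson interval 46.2 to 131), against 2.89 CPM in T/NK-like nuclei. Xcr1 had 8 UMIs, a pooled 40.4 CPM (17.5 to 79.7), and it was seen in 3 of 6 libraries. Macrophage-like nuclei held more of its UMIs, 17 of 35, at a pooled 2.79 CPM, and 12 of those came from KO replicate 3.

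Ccr9, the Ccl25 receptor of gut-homing lymphocytes and plasmacytoid dendritic cells, pooled to 464 CPM in plasmacytoid dendritic-like nuclei from 47 UMIs (341 to 616). Its libraries there were at 1207, 622, 571, 714, 201 and 160 CPM, from 4 to 12 nuclei each. Tumor-like nuclei, with 74.8% of its UMIs, had 16.4, 16.6, 11.4, 21.6, 4.85 and 5.09 CPM, 35.1-fold less in the pool. Ccr9 overlaps Lztfl1 on the opposite strand (7098 UMIs), and the part of that gene in the Ccr9 counts was not tested either.

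Receptors with under 100 UMIs added little. Ccr10 had 68 UMIs and stood at 1.62, 0.86, 0.61, 0.76, 0.71 and 0.36 CPM in all nuclei after TMM scaling (trimmed mean of M values, which sets library sizes on a common scale). Cxcr5 had 67 and stood at 0.47, 0.79, 0.85, 1.52, 0.36 and 0.98 CPM on the same scale. Both overlapped between groups. Cxcr2, the neutrophil receptor for Cxcl1, Cxcl2 and Cxcl5, had 11 UMIs, and Ccr3, Ccr8 and Ccr4 had 5, 4 and 15.

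Of the atypical receptors, Ackr3, which clears Cxcl12, was highest in vessel and fibroblast nuclei. Endothelial-like nuclei had 0, 81.6, 78.3, 96.3, 6.99 and 17.4 CPM, from 39 UMIs, and pooled to 41.9 CPM (29.8 to 57.2). Fibroblast-like nuclei pooled to 33.4 CPM (19.5 to 53.5) and tumor-like nuclei to 1.78 CPM. The intervals of the endothelial-like and fibroblast-like classes overlapped. Ackr4, which scavenges Ccl19, Ccl21 and Ccl25, was spread over the classes, and its tumor-like values were 8.12, 8, 5.92, 7.21, 1.23 and 3.72 CPM. Ackr2 had 7 of 8 UMIs in endothelial-like nuclei.

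Leading classes were also read along the gene clusters. On chromosome 9, 7 receptor genes lie within 435 kb (chr9:123678439-124113557, GRCm38). Ccr9 led in plasmacytoid dendritic-like, Cxcr6 in T/NK-like, Xcr1 in dendritic-like and Ccr1 and Ccr2 in monocyte-like nuclei, while Ccr1l1 and Ccr3 had under 5 UMIs in every class. On chromosome 11, Ccl2, Ccl7, Ccl11, Ccl12, Ccl8 and Ccl1 lie within 270 kb (chr11:82035571-82305690), and Ccl5, Ccl9, Ccl6, Ccl3 and Ccl4 within 139 kb (chr11:83525778-83664683). Monocyte-like or macrophage-like nuclei led for all 5 of the latter, and for Ccl2, Ccl7 and Ccl12 of the former. Monocyte-like nuclei led for Ccl5 in 1 of 6 libraries and for Ccl2 in 2 of 6, with dendritic-like nuclei next in the pool. Dendritic-like nuclei led for Ccl5 without CO replicate 1, CO replicate 3 or KO replicate 1, and for Ccl2 without CO replicate 2.

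Class levels were also compared in a fit of edgeR's quasi-likelihood test to sums per library and class, with the library as a block, over 7 classes. Each class was set against the mean of the others, with a call at an adjusted p of at most 0.05 and 1.5-fold. Because nuclei had been clustered by the expression of other genes, many genes differ between classes by construction, and 14 of the 67 members had enough counts to be tested. In macrophage-like nuclei 12 of these 14 were called higher, where 31.4% of the 8182 genes tested were, and the same 12 were called in monocyte-like nuclei, where 31.3% were. They included Ccl2, Ccl4, Ccl5, Ccl7, Ccl12, Cxcl9, Cxcl10, Cxcl16, Ccr1, Ccr2 and Cx3cr1. A filter passed through classes where a gene is high selects such genes, so these counts are not a result on the members.

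Outside the myeloid classes fewer members were called higher. Tumor-like nuclei had 2, Ccl25 at 0.81 ± 0.14 and Ccl2 at 0.68 ± 0.24 on the log2 scale, with 34.4% of genes called. T/NK-like nuclei had 3, among them Ccr2 at 3.49 ± 0.44 and Ccl25 at 0.62 ± 0.17, with 24.4% called. Endothelial-like nuclei had Cxcl9 at 3.30 ± 0.73 and Cxcl12 at 2.86 ± 0.58, with 22.5% called, but 0 members without CO replicate 1 or without KO replicate 3. Dendritic-like nuclei had Ccl2 and Ccl5, with 9.35% called, and 1 without CO replicate 2 or KO replicate 1 and 4 without KO replicate 2. In adipocyte-like nuclei 0 members were called higher by edgeR, and 0 were higher at an unadjusted p under 0.05, with 6.65% of genes called. The tumor-like count became 1 without CO replicate 2.

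Libraries differed in their chemokine level within groups as well as between them. Ligands summed to 1895, 1527, 852, 1610, 417 and 716 CPM over all nuclei and receptors to 177, 209, 209, 237, 53.3 and 195 CPM. KO replicate 2 was lowest in both, and KO replicate 1 was near the highest CO libraries. In such sums, fewer nuclei of a class and less RNA per nucleus cannot be told apart. The 82 ribosomal protein genes moved with the ligands, at 14550, 12510, 9041, 14580, 3053 and 6941 CPM, and the median mitochondrial share of a nucleus was 6.76%, 3.97%, 1.33%, 6.21%, 3.82% and 0.889%. Some libraries had extra washes against free RNA, but the labels do not say which, and the part of handling in these levels was not tested.

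**Figure D4:**
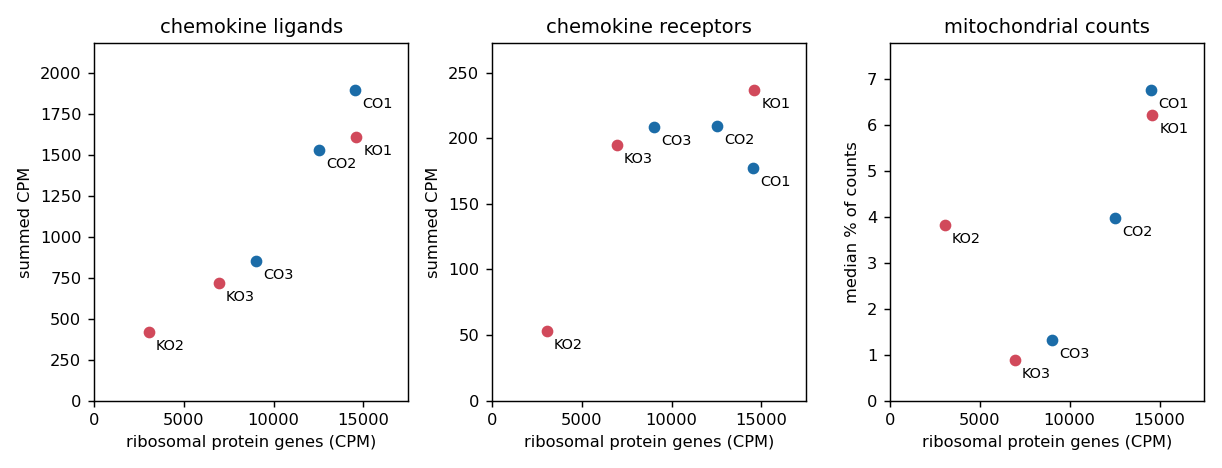
Summed ligand level, summed receptor level (both in CPM) and median mitochondrial share of counts (percent) on the vertical axes against the summed level of 82 ribosomal protein genes (horizontal axes, CPM), 1 point per library over all nuclei, blue for CO and red for KO. KO replicate 2 has the lowest ribosomal, ligand and receptor levels, and CO replicate 1 and KO replicate 1 the highest ribosomal levels.

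KO and CO libraries were compared to ask whether the labelled loss of host MCT2 went with other chemokine levels in the tumor. No member was called different in any of 5 sums. edgeR's quasi-likelihood test, with adjustment over all genes, called 0 of 32 members tested over all nuclei, 0 of 24 in tumor-like, 0 of 18 in macrophage-like, 0 of 12 in monocyte-like and 0 of 9 in T/NK-like nuclei. Of all genes tested in each of these comparisons, 0% were called. At an unadjusted p under 0.05 there were 2, 2, 3, 1 and 1 members, and DESeq2 called 0 in each, with 3, 3, 3, 1 and 0 members under 0.05. The median log2 fold change of the members was -0.22 over all nuclei, -0.35 in tumor-like, -0.16 in macrophage-like, -0.30 in monocyte-like and 0.08 in T/NK-like nuclei, beside medians of all genes between -0.02 and 0.02. These member medians moved with single libraries. Without KO replicate 2 they were -0.13, 0.037, 0.0087, -0.19 and 0.081 in the same order. Without KO replicate 1 they were -0.71, -0.56, -0.84, -1.25 and -0.73.

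The members with the largest differences over all nuclei are given with CPM after TMM scaling. Xcl1 was at 5.89, 2.01, 0.37, 1.11, 0.07 and 0.98, a log2 fold change (KO over CO) of -1.96 ± 1.03 (SE), and the groups overlapped. Without CO replicate 1 it was -0.78. Cx3cl1 was at 12.5, 11.2, 23.5, 6.59, 6.12 and 7.69, a difference of -1.21 ± 0.33 with an adjusted p of 0.67 in edgeR, and -0.80 without CO replicate 3. All 3 KO libraries were below all 3 CO libraries for Cx3cl1. Cxcl17 did not overlap either, at 4.20, 3.22, 4.15, 2.74, 0.85 and 1.52, with a difference of -1.16 ± 0.45. Cxcr4 did not overlap in the other direction, at 1.90, 1.72, 1.71, 1.98, 2.71 and 5.45, with a difference of 0.91 ± 0.43 that was 0.43 without KO replicate 3. These 3 of 32 members had groups without overlap, where 10.9% of all genes did.

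The remaining large differences overlapped between groups. Ccl9 was at 1.29, 1.5, 2.07, 7.58, 0.93 and 1.97, a log2 fold change of 1.14 ± 0.74 that came from KO replicate 1 and was -0.16 without it. Ccl5 was at 826, 524, 92.5, 417, 88.3 and 187, a difference of -1.06 ± 0.81 that was -0.42 without CO replicate 1. Leaving out KO replicate 2 gave -0.66 and leaving out KO replicate 1 gave -1.81. CO replicate 3 and KO replicate 2 were nearly the same for Ccl5. Cxcl12 was at 11.9, 14.1, 36.7, 15.9, 10.8 and 7.15 (-0.88 ± 0.50), Ackr4 at 8.46, 8.02, 6.10, 7.63, 1.42 and 3.31 (-0.86 ± 0.56), and Ccl7 at 16.6, 20.3, 30.1, 22.5, 5.91 and 8.31 (-0.86 ± 0.51). In each of these genes KO replicate 1 lay among the CO libraries. Cxcl12 was at -0.20 without CO replicate 3. Without KO replicate 2, Ackr4 was at -0.45 and Ccl7 at -0.53, and without KO replicate 1 they were at -1.69 and -1.65. Ccr10 had a log2 fold change of -0.76 ± 0.51, which was -0.27 without CO replicate 1. Ccl2 was at 368, 289, 255, 497, 67.9 and 101, a difference of -0.45 ± 0.70 that ranged from -1.85 without KO replicate 1 to -0.02 without KO replicate 2, where the highest and the lowest library were both labelled KO.

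**Figure D5:**
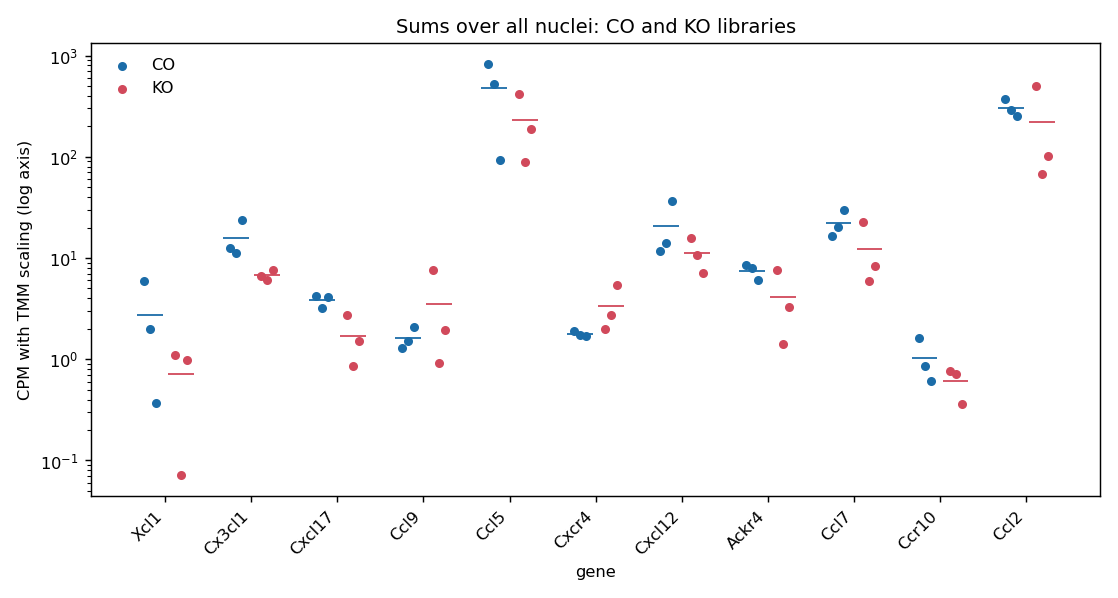
Level of 11 genes over all nuclei (vertical axis, CPM after TMM scaling, logarithmic) for CO libraries (blue) and KO libraries (red), with lines at group means and genes on the horizontal axis ordered by the size of the log2 fold change, Ccl2 last. Cx3cl1, Cxcl17 and Cxcr4 do not overlap between groups, and the KO values of Ccl2, Ccl7 and Ackr4 spread more widely than the CO values.

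Within classes no member passed the test either. Cx3cl1 in tumor-like nuclei had a log2 fold change of -1.30 ± 0.33 (adjusted p = 0.57 in edgeR). It was without overlap, as were Cxcl17 and Cxcr6, 3 of 24 members there where 12.8% of genes were. In macrophage-like nuclei 4 of 18 members were without overlap, where 11.9% of genes were. They included Cx3cr1 (-0.79 ± 0.24), Cxcl17 (-1.53 ± 0.45) and Cxcr4 (1.26 ± 0.48), with adjusted p of 0.77 for each in edgeR.

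Cx3cr1 was also without overlap in monocyte-like nuclei (-1.09 ± 0.31, adjusted p = 0.95 in edgeR), 1 of 12 members where 10.6% of genes were. The 10 macrophage markers summed to 3880 to 4466 CPM in the macrophage-like nuclei of CO libraries and to 2547 to 4395 CPM in those of KO libraries, with KO replicates 2 and 3 lowest. The 10 tumor markers in the same nuclei summed to 749 to 1505 CPM in CO and 969 to 3435 CPM in KO libraries. Their part in the Cx3cr1 difference was not tested. In T/NK-like nuclei 0 of 9 members were without overlap, where 13.4% of genes were, and Cxcl16 had the lowest unadjusted p, with 1.00 ± 0.43.

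The comparison depended on KO replicate 1. Without it, 0 of 36 members tested were called over all nuclei (0% of genes called) and 7 of 25 in tumor-like nuclei (19% of genes). The counts were 7 of 16 in macrophage-like (17.6%), 7 of 13 in monocyte-like (11.8%) and 1 of 11 in T/NK-like nuclei (0.845%). All members called were lower in the remaining 2 KO libraries. Of all genes called, 809 of 2468 in tumor-like and 752 of 1678 in macrophage-like nuclei were higher there. The same held for 229 of 630 in monocyte-like and 27 of 73 in T/NK-like nuclei. Ccl2 was called in each of the 4 classes, at -1.94 ± 0.25 in tumor-like, -1.39 ± 0.20 in macrophage-like, -1.48 ± 0.29 in monocyte-like and -1.48 ± 0.31 in T/NK-like nuclei on the log2 scale. Ccl12 was called at -2.0 ± 0.51, -1.86 ± 0.26 and -3.68 ± 0.49 in the tumor-like, macrophage-like and monocyte-like classes. Ccr2 was called at -1.13 ± 0.28 and -1.79 ± 0.33 in macrophage-like and monocyte-like nuclei, and Cx3cr1 at -1.08 ± 0.19 and -1.52 ± 0.32. KO replicates 2 and 3 also had the lowest ribosomal protein levels of the 6 libraries, and this was not tested as a part of the difference.

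Genes around the chemokine system were counted from lists. Among 35 genes of chemokine receptor signaling, 33 were tested over all nuclei and 0 were called, with Prkcb at 0.49 on the log2 scale. Of 18 inducers of chemokine genes 15 were tested and 0 called, with Tlr4, the endotoxin receptor, at 0.75 and Irf7, an interferon regulator, at -0.73. Of 14 related genes outside the symbol rule 11 were tested and 0 called, with Pf4, also named Cxcl4, at 1.25 and Mif at -0.40. In tumor-like nuclei 28, 14 and 10 genes of these lists were tested, in macrophage-like 32, 15 and 8, in monocyte-like 27, 13 and 6, and in T/NK-like 29, 13 and 7, and 0 were called in each. The medians of the signaling list were 0.17 over all nuclei, 0.45 in tumor-like, 0.45 in T/NK-like, 0.067 in macrophage-like and 0.015 in monocyte-like nuclei, beside medians of all genes between -0.02 and 0.02. In tumor-like nuclei 23 of the 28 genes were positive, where 48.2% of all genes were, and Vav1 at 1.80 and Grk3 at 1.29 were the largest. The part of free RNA from other classes in this median was not tested.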

How the data were processed

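Nuclei from 6 tumors, 3 CO and 3 KO, were profiled with a droplet 3′ kit. The deposited matrices hold raw UMI counts per gene and barcode, made by the authors with Cell Ranger (3.0.2 per the labels, 3.1.0 per the file headers) against GRCm38. Strand use, intron counting and which libraries had extra washes are not given in the sources used here. No cell annotation was used, so classes were rebuilt. The members and all lists were chosen with earlier results of these data known.

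Barcodes with 100 to 7500 genes and under 20% mitochondrial counts were kept, and 500 nuclei with the highest simulated-doublet scores (0.8% per 1000 nuclei) were removed. The 67 genes and mitochondrial genes were left out of the 2000 variable genes. Nuclei were integrated over libraries by a Harmony-type correction and clustered (Leiden, resolution 1; scanpy 1.11.5, Python 3.11.15). Clusters were named from marker lists, by a rule set after clusters were seen. A shallow cluster of 500 nuclei and a mixed cluster of 449 stayed unnamed. Counts were summed per library and class, with 7809921 to 16892836 UMIs per library over all nuclei.

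KO and CO sums were compared with edgeR 4.0.16 (TMM, filterByExpr, quasi-likelihood test) where every library had at least 20 nuclei, and classes with at least 10 nuclei in 5 libraries with the library as a block. Calls needed an adjusted p of at most 0.05 (Benjamini-Hochberg over all genes) and an absolute log2 difference of at least 0.58. Genes named are members with at least 100 UMIs. For KO against CO these are called members, the 10 largest changes over all nuclei, Ccl2 and Ccl5. Those singled out for groups without overlap or a low unadjusted p were chosen after their values were seen, as were Cxcl9 in tumor-like clusters, the lung genes and members under 100 UMIs. Results of 1 member and 1 gene of the lists are not reported here. A planned permutation test of a summed level was not run. Alternatives were RLE factors, no low-count filter, DESeq2 1.42.0, a replicate block, leaving out each library, a stricter nucleus filter, doublets kept, classes by each nucleus's marker counts and no integration. The test was checked on simulated counts.

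The labels do not say whether the replicate numbers pair the libraries. Over all nuclei, deviations from group means correlated at 0.47, -0.27 and 0.39 for numbers 1, 2 and 3. Median mitochondrial shares of CO and KO were 6.76% and 6.21%, 3.97% and 3.82%, and 1.33% and 0.889% for these numbers. A pairing by number was thus neither assumed nor excluded, and a replicate block was fitted as an alternative. Promoters came from RefSeq (GRCm38.p6), and gene positions from GENCODE vM21, which held 67 of 67 identifiers.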

Additional observations from a re-analysis of the deposited data

How the results depend on the processing

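Counts of members called between KO and CO stayed at 0 under RLE factors, DESeq2, the stricter nucleus filter and doublets kept. The replicate block also gave 0 members in each of the 5 sums, and not every library correlated best with its own number. With the block, the median log2 fold change of the members over all nuclei was -0.56, beside -0.22 in the main fit. Over all genes, where edgeR called 0 in each sum, DESeq2 called 12 over all nuclei, 27 in tumor-like, 4 in macrophage-like and 10 in T/NK-like nuclei, the replicate block called 18 in T/NK-like nuclei, and no low-count filter gave 4 in macrophage-like, 29 in monocyte-like and 60 in T/NK-like nuclei. Without a low-count filter 1 member was called in T/NK-like nuclei, Xcl1 (-2.29, adjusted p = 0.046 in edgeR). Leaving out 1 library gave 0 to 0 members over all nuclei, 0 to 7 in tumor-like, macrophage-like and monocyte-like and 0 to 1 in T/NK-like nuclei, and the calls arose without KO replicate 1. For classes, leaving out 1 library gave 1 to 3 members in tumor-like, 9 to 12 in macrophage-like, 11 to 12 in monocyte-like, 1 to 4 in dendritic-like, 3 to 3 in T/NK-like and 0 to 2 in endothelial-like nuclei. Tumor-like nuclei had 1 with RLE factors, 7 with no filter, 1 with the strict filter and 0 with classes by marker counts. Dendritic-like nuclei had 5, 7, 1 and 0 under the same settings. Macrophage-like nuclei had 7 with the strict filter. With no filter T/NK-like nuclei had 6 and endothelial-like nuclei 7, and the latter had 0 with doublets kept, with marker counts and without integration. The cause was not tested. Of 25 log2 fold changes of named members, 19 kept their direction over 312 alternative values, and 10 values passed the threshold, all without KO replicate 1. The 6 that turned were Ccl12 in macrophage-like (-1.86 to 0.35 over left-out libraries) and tumor-like nuclei (-2.0 to 0.16, and 0.28 by marker counts), Ccl2 in T/NK-like (-1.48 to 0.50, -0.48 with the replicate block and -0.0773 with the strict filter), macrophage-like (-1.39 to 0.13) and monocyte-like nuclei (-1.48 to 0.0566, and 0.0337 with the strict filter), and Ccl9 over all nuclei (-0.16 to 1.59). Leading classes were kept for 22 to 28 of 29 genes over left-out libraries, 20 with the strict filter, 28 with doublets kept, 24 without integration and 15 by marker counts. Classes with under 200 nuclei limit what can be seen of stromal and dendritic genes.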

Other observations

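Known ligand and receptor partners were set side by side. For Ccl2, Ccl7 and Ccl12, the receptor Ccr2 had its highest level in monocyte-like nuclei, and most UMIs of Ccl2 and Ccl7 lay in tumor-like nuclei while the largest share of Ccl12, 44.8%, lay in macrophage-like nuclei. Cxcl16 had 57.6% of its UMIs in macrophage-like nuclei and its receptor Cxcr6 had 46.5% in T/NK-like nuclei. Xcl1 had its highest level in T/NK-like and Xcr1 in dendritic-like nuclei, although macrophage-like nuclei held the largest share of Xcr1 UMIs. Cx3cl1 had 80.6% of its UMIs in tumor-like nuclei and Cx3cr1 56.0% in macrophage-like nuclei. Cxcl10 had 24226 UMIs and its receptor Cxcr3 had 39. For Cxcl2 and Cxcl5 the receptor Cxcr2 had 11 UMIs, and Ccl19 had 0 UMIs beside 39 of Ccr7. These are RNA levels, and binding was not measured.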
